A study of Homo sapiens with 23 samples.

Results

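The comparison set the response to IL-13 of lung fibroblasts that had been primed with TNF and IL-17, and then given an antibody to the receptor IL-13Ra2, against the response of fibroblasts that had never been primed. It was computed for each gene as a difference of differences, Pre_Ab_IL13 minus Pre_Ab_only less IL13 minus Control, with cell passage as a blocking term. Of the 23 arrays of the series, 16 belong to these 4 groups, with 4 arrays in each, and all 12994 detected genes were compared. The 9 genes called in the difference are described first, then the genes that IL-13 changed in both settings.

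All cells were CCL-75, a human lung fibroblast line from ATCC, profiled on single-colour Illumina bead arrays. Pre_Ab_IL13 cells received TNF and IL-17 for 72 hours, the neutralising anti-IL-13Ra2 antibody for the last 1 hour of that time, a wash and then IL-13 for 20 hours. Pre_Ab_only cells received the same cytokines and antibody without IL-13. IL13 cells received IL-13 for 20 hours with neither cytokines nor antibody, and Control cells received none of these agents. Each group holds experiments A and B of passage 6 and of passage 8, so the arrays are called P6-A, P6-B, P8-A and P8-B, and per-array values below follow that order. The antibody was given only to primed cells, so in this difference the effect of priming and that of the antibody cannot be told apart. Primed cells without the antibody were measured in Pre_IL13 (4 arrays) and Pre_only (3 arrays), and their values are set beside the others where they bear on a gene. All cells are of 1 line, and each passage was hybridised on a beadchip of its own, so the effect of passage cannot be told apart from that of the beadchip.

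IL-13 is a cytokine of type 2 immunity. It signals through a receptor made of IL-13Rα1, encoded by IL13RA1, and IL-4Rα, encoded by IL4R, whose kinases phosphorylate the transcription factor STAT6. STAT6 then enters the nucleus and activates genes such as the eotaxins CCL26 and CCL11, which attract eosinophils, and the feedback inhibitor SOCS1. IL-13Ra2, the product of IL13RA2, binds IL-13 tightly, has a short cytoplasmic tail and is known mainly as a decoy that takes IL-13 away from the signalling receptor. TNF and IL-17 act through NF-κB and C/EBP factors and induce inflammatory genes in fibroblasts.

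Between 17811 and 20162 probes were detected per array (detection p under 0.05), and the median raw intensity of an array lay between 93.4 and 104. Each probe was read from a median of 20 to 22 beads, with a bead standard error of 2.88% to 3.64% of the mean, highest on IL13 P6-B. The 2 IL13 arrays of passage 6 also differed most from each other: the SD of their differences over genes was 0.36 (log2), while it lay between 0.20 and 0.27 in the other 10 pairs of A and B arrays. Fibroblast markers were present throughout, with 14 of 16 detected on all 16 arrays. Defining markers of other cell types were near the background: the endothelial PECAM1 was detected on 0 of the 16 arrays, EPCAM and SCGB1A1 on 1 each and CD3D on 2. The summed level of the leukocyte list ran from 11.21 to 11.43 on Pre_Ab_IL13 arrays and from 11.36 to 11.61 on Pre_Ab_only arrays, against 9.98 to 10.64 on IL13 arrays and 10.57 to 10.77 on Control arrays. The epithelial list summed to 9.05 to 9.65 on Pre_Ab_IL13 arrays and 9.12 to 9.87 on Pre_Ab_only arrays, against 9.95 to 10.15 on IL13 arrays and 10.03 to 10.34 on Control arrays. The endothelial list summed to 7.15 to 7.54 on Pre_Ab_IL13 arrays and 7.48 to 8.19 on Pre_Ab_only arrays, against 6.77 to 7.32 on IL13 arrays and 7.28 to 7.67 on Control arrays. Of the leukocyte genes with a probe 5 of 12 were detected on all 16 arrays, of the epithelial ones 2 of 11 and of the endothelial ones 1 of 3, the receptor gene TEK. Their part in the results was not tested. In such bulk samples fewer cells of a type and less RNA per cell cannot be told apart. Level means log2 normalised intensity throughout, on a scale whose lowest possible value is 4.

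In the difference between the 2 responses, 9 of 12994 genes were called by limma at a Benjamini-Hochberg adjusted p under 0.05, which is 0.0693% of the genes tested. The difference, primed minus unprimed, was above 0 for 6 genes (0.0462% of those tested): STEAP1, HAS3, SIPA1L2, LXN, IL1RL1 and OXTR. It was below 0 for 3 (0.0231%): SOX11, which rose in the unprimed response alone, C1QTNF1, which rose less in primed cells, and GRB14. The measured fall of GRB14 was larger in primed cells, but it was detected on only 2 of 4 IL13 arrays. These calls come from the fit to all 23 arrays, and with the 16 arrays fitted alone 11 genes were called, 8 of the 9 among them and IL1RL1 not (adjusted p = 0.109). The sizes depended on the background correction. Without it all 9 were called, with differences of 0.40 for HAS3, 0.51 for SIPA1L2, 0.28 for IL1RL1, -0.29 for SOX11 and -0.57 for GRB14, against 1.23, 1.12, 0.85, -0.94 and -0.91 with it. The authors' normalised table gave values within 0.01 of the uncorrected ones for these 5 genes. The same comparison had 759 genes with an unadjusted p under 0.05, where 650 would come from 5% of the genes tested. The median standard error of a gene's difference was 0.17 and the median half-width of its 95% confidence interval was 0.35 (log2), and the smallest called difference was 0.67. Each response alone was called for many more genes: 291 (2.24%) in primed cells with antibody, with 150 higher (1.15%) and 141 lower (1.09%), and 243 (1.87%) in unprimed cells, with 150 higher (1.15%) and 93 lower (0.716%). Of the 9 genes, 6 were called in the primed response and not in the unprimed one, SOX11 was called in the unprimed response alone, and GRB14 and C1QTNF1 were called in both.

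**Figure D1:**
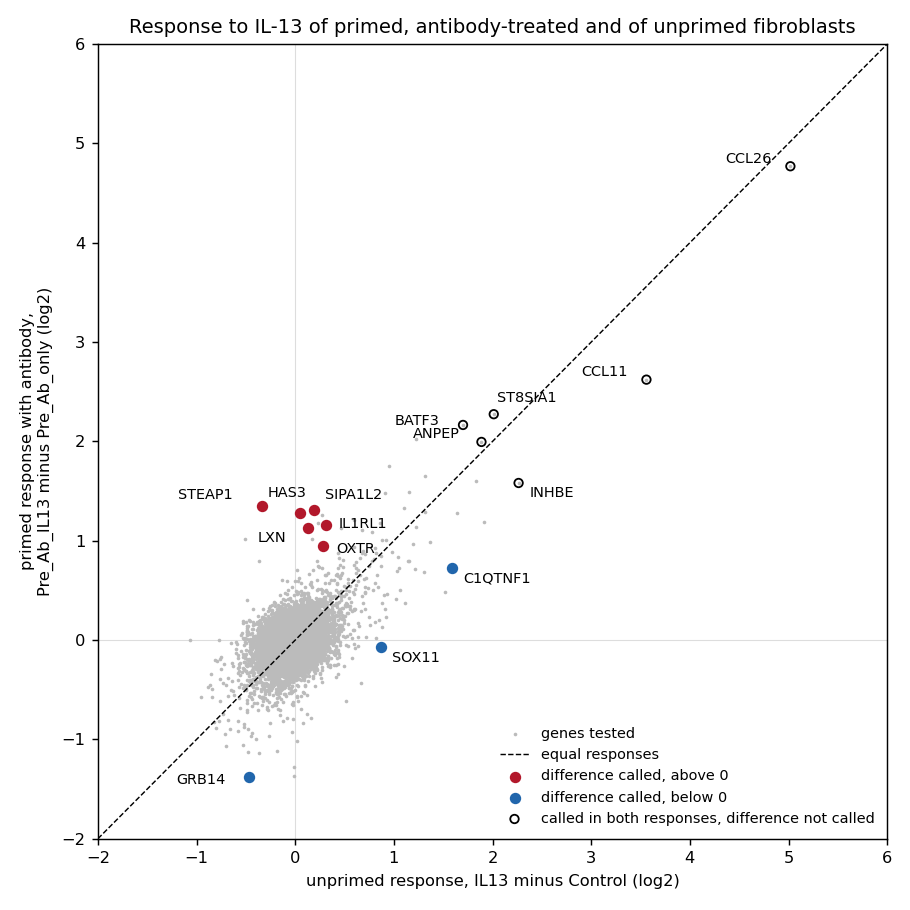
Response to IL-13 in unprimed cells (x axis, IL13 minus Control) against the response in primed, antibody-treated cells (y axis, Pre_Ab_IL13 minus Pre_Ab_only), both in log2, for 12994 genes as grey points. Filled points are the 9 genes called in the difference, which lie off the dashed line of equal responses, and open circles are 6 genes called in both responses, among them CCL26 at 4.77 primed and 5.02 unprimed.

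STEAP1 encodes a membrane protein of the STEAP family, whose other members reduce iron and copper and which itself was first described as an antigen of prostate epithelium. It had levels of 9.69, 9.56, 10.05 and 10.31 on Pre_Ab_IL13 arrays, against 8.12, 8.34, 8.77 and 8.98 on Pre_Ab_only arrays. The unprimed levels were 6.89, 7.16, 7.40 and 7.46 on IL13 arrays, against 7.61, 7.20, 7.69 and 7.77 on Control arrays. Every Pre_Ab_IL13 array lay above every Pre_Ab_only array, every Pre_Ab_only array lay above all unprimed arrays, and the IL13 and Control arrays overlapped. The response was 1.35 ± 0.11 (log2, SE) in primed cells (adjusted p = 1.80e-09) and -0.34 ± 0.11 in unprimed cells (adjusted p = 0.148), and the difference of 1.69 ± 0.16 had an adjusted p of 2.34e-07 in limma. In primed cells without the antibody the response was -0.08. A second STEAP1 probe gave a difference of 1.57. STEAP1B, a close relative of STEAP1, was not among the genes tested, and with no probe sequences at hand it was not tested whether its transcript adds to the STEAP1 probes.

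STEAP2 lies next to STEAP1 on chromosome 7 and encodes a metalloreductase of the same family. Its levels were 7.48, 7.61, 7.83 and 8.08 on Pre_Ab_IL13 arrays, against 6.62, 6.72, 6.72 and 6.89 on Pre_Ab_only arrays, and 6.29, 6.07, 5.80 and 5.72 on IL13 arrays, against 5.67, 6.02, 5.89 and 5.61 on Control arrays. The Pre_Ab_IL13 arrays lay above all others and the IL13 arrays overlapped the Control arrays. STEAP2 rose in the primed response (1.02 ± 0.15, adjusted p = 6.55e-05), and its unprimed response was 0.17 (adjusted p = 0.710). Its difference of 0.84 ± 0.22 was not called (adjusted p = 0.223), and its second probe gave 0.98. CFAP69, the neighbour beyond STEAP2, had a difference of 0.75 ± 0.16 that was not called either (adjusted p = 0.0623). STEAP2 and CFAP69 were named after their values were seen. Of 18 measured genes for STEAP metalloreductases and iron handling, 2 rose in the primed response, STEAP1 and STEAP2. There 2 fell, the iron exporter SLC40A1 (-0.81) and the haem oxygenase HMOX1 (-0.62). In the unprimed response 0 were called, though SLC40A1 averaged 5.11 on IL13 and 5.69 on Control arrays, and HMOX1 5.69 and 5.96. Neither was called in the difference. The list's median difference was 0.06, against 0.01 over all genes. This list and those for hyaluronan, the IL-1 family, Rap regulators and carboxypeptidases were written around the 5 marker genes of the comparison, so each holds its marker by choice.

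HAS3 encodes a hyaluronan synthase, an enzyme of the plasma membrane that extrudes the glycosaminoglycan hyaluronan into the matrix. Its levels were 5.26, 5.24, 6.02 and 6.07 on Pre_Ab_IL13 arrays, against 4.49, 4.44, 4.25 and 4.31 on Pre_Ab_only arrays, 4.51, 4.26, 4.45 and 4.22 on IL13 arrays and 4.32, 4.32, 4.15 and 4.46 on Control arrays. It was detected on all 4 Pre_Ab_IL13 arrays and on 0 arrays of the other 3 groups, and within Pre_Ab_IL13 the passage 8 arrays were the higher ones. Raising the undetected values to the lowest detected level, HAS3 was at least 2.03-fold higher on Pre_Ab_IL13 than on Pre_Ab_only arrays and at least 1.98-fold higher than on IL13 arrays. The fitted difference of 1.23 ± 0.22 had an adjusted p of 0.00768 in limma. HAS3 passed the filter of detection on 3 or more arrays only through the Pre_Ab_IL13 group. This p therefore sets signal against background values and is no separate support for the difference. In primed cells without the antibody HAS3 was detected on 1 of 4 Pre_IL13 and 0 of 3 Pre_only arrays, so its response there has no measured size.

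Of 18 measured hyaluronan synthases, hydrolases and binders, 2 rose in the primed response, HAS3 and HAS2, and HMMR, a hyaluronan-binding protein that also acts at the mitotic spindle, fell. None was called in the unprimed response, and HAS3 alone was called in the difference. HAS2, the main synthase of fibroblasts, had a primed response of 0.48 ± 0.13 (adjusted p = 0.0498) and an unprimed response of 0.03, and its difference of 0.45 ± 0.19 was not called (adjusted p = 0.767). HMMR had a primed response of -0.63 and an unprimed one of -0.13. The list's median difference was 0.16, against 0.01 over all genes. In the difference 6 of the 18 had an unadjusted p under 0.05, against 759 of 12994 genes.

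SIPA1L2 encodes a GTPase-activating protein for the small GTPase Rap. It had levels of 6.28, 6.53, 6.71 and 6.64 on Pre_Ab_IL13 arrays, against 5.19, 5.36, 5.07 and 5.31 on Pre_Ab_only arrays, and 4.63, 5.09, 4.97 and 5.16 on IL13 arrays, against 4.45, 4.73, 4.98 and 4.94 on Control arrays. The 4 Pre_Ab_IL13 arrays stood above the other 12, which overlapped between groups. The primed response was 1.31 ± 0.13 (adjusted p = 2.26e-08), the unprimed one 0.19 ± 0.13 (adjusted p = 0.607) and the difference 1.12 ± 0.18 (adjusted p = 0.00298). In primed cells without antibody the response was 0.05. Of 18 Rap GTPases and regulators, RASGRP3, an exchange factor for Ras and Rap, was the other called member: it fell in the primed response (-0.60) and its difference of -0.31 was not called. The list's median difference was 0.06.

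LXN encodes latexin, an inhibitor of metallocarboxypeptidases. Its levels were 11.90, 11.92, 11.94 and 12.02 on Pre_Ab_IL13 arrays, against 10.84, 11.00, 10.69 and 10.74 on Pre_Ab_only arrays, and 8.81, 9.43, 9.33 and 9.59 on IL13 arrays, against 8.94, 9.03, 9.37 and 9.30 on Control arrays. The groups of primed arrays did not overlap with each other or with the unprimed ones, and the IL13 arrays overlapped the Control arrays, with IL13 P6-A the lowest of all. LXN rose in the primed response by 1.13 ± 0.13 (adjusted p = 3.75e-07), with 0.13 ± 0.13 in unprimed cells (adjusted p = 0.744) and a difference of 1.00 ± 0.18 (adjusted p = 0.00783). Primed cells without antibody had a response of 0.005. Of 13 carboxypeptidases and related genes, CPA4, a carboxypeptidase that latexin inhibits, rose in both responses (0.80 primed and 0.78 unprimed, difference 0.02). The list's median difference was -0.04.

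IL1RL1 encodes ST2, the receptor for the alarmin IL-33, in a membrane form and a soluble form. Its levels were 5.31, 5.15, 5.73 and 5.83 on Pre_Ab_IL13 arrays, against 4.38, 4.29, 4.46 and 4.26 on Pre_Ab_only arrays, and 4.67, 4.97, 4.62 and 4.84 on IL13 arrays, against 4.67, 4.34, 4.37 and 4.48 on Control arrays. It was detected on all 4 Pre_Ab_IL13 arrays, on 0 of 4 Pre_Ab_only arrays, on 2 IL13 arrays and on 1 Control array. The Pre_Ab_IL13 arrays lay above the other 12, and the IL13 and Control ranges met at their ends. In the primed pair IL-13 raised IL1RL1 at least 1.84-fold. The fitted difference of 0.85 ± 0.17 was the one nearest to the threshold (adjusted p = 0.0436 in limma), and a second probe gave 0.78. When 1 array at a time was left out, the call was kept in 5 of 16 cases, without Pre_Ab_IL13 P6-A, Pre_Ab_IL13 P6-B, Pre_Ab_only P6-A, IL13 P6-B or Control P8-A, and the difference stayed between 0.75 and 0.95 in all 16. In primed cells without antibody IL1RL1 was detected on 2 of 4 Pre_IL13 and 1 of 3 Pre_only arrays, too few to size a response.

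IL18R1, next to IL1RL1 on chromosome 2, encodes a receptor chain for IL-18. It had levels of 5.54, 5.91, 5.88 and 5.77 on Pre_Ab_IL13 arrays, against 4.48, 4.52, 4.82 and 4.58 on Pre_Ab_only arrays, and 4.42, 4.62, 4.83 and 4.90 on IL13 arrays, against 4.44, 4.76, 4.25 and 4.38 on Control arrays. The Pre_Ab_IL13 arrays lay above all other arrays. IL18R1 rose in the primed response (1.18 ± 0.14, adjusted p = 1.24e-06) and its unprimed response was 0.24 (adjusted p = 0.543), but the difference of 0.94 ± 0.20 was just outside the threshold (adjusted p = 0.0586). Of 15 measured IL-1 family cytokines and receptors, IL1RL1 and IL18R1 were the 2 that rose in the primed response, and 0 were called in the unprimed one. The median difference of the list was -0.12. In the difference 5 of the 15 had an unadjusted p under 0.05, against 759 of 12994 genes.

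The starts of these neighbouring genes are shown because the 2 members of each pair had differences of the same sign. STEAP2 and IL18R1 were chosen after their values were seen, and the neighbours of the other called genes are not described. The pairs therefore do not show whether neighbours of called genes in general moved together. Sequences are RefSeq promoter entries of build GRCh38.p14, 5′ to 3′ on the gene's own strand. Each line gives the 150 bases before the annotated start, or for IL18R1 the 150 bases around a motif match, which stands in capitals.
STEAP1, chr7:90154319-90154468, plus strand: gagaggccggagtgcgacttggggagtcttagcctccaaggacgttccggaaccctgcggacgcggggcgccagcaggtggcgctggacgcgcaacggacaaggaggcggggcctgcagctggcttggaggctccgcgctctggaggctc
STEAP2, chr7:90211590-90211739, plus strand: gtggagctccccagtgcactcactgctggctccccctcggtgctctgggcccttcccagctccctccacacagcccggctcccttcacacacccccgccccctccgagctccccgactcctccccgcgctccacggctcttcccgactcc
IL1RL1, chr2:102337107-102337256, plus strand: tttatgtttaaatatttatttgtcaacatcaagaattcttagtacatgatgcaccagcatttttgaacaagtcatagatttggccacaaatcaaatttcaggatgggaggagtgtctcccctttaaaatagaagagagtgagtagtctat
IL18R1, chr2:102355575-102355724, plus strand: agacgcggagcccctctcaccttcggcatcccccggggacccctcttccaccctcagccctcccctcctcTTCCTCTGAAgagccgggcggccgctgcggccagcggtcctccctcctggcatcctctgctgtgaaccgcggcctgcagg
The capitals in IL18R1 mark TTCNNNNGAA, the spacing of the palindrome that STAT6 is known to bind, at position -151 from the start. The 250 bases before the start were searched on both strands for TTCNNNNGAA, for TTCNNNGAA, the spacing bound by other STAT factors, and for GGGNNTTTCC, an NF-κB form. These stood in 5.38%, 6.57% and 1.73% of 35116 RefSeq promoters. Of 18 genes searched, 14 had an entry and 2 held a match, IL18R1 and POSTN (TTCNNNGAA at position -92). None of the 7 called genes with an entry, STEAP1, HAS3, SIPA1L2, LXN, IL1RL1, OXTR and GRB14, held one of the 3 forms in this window. Neither did CCL26, SOCS1, ST8SIA1, ANPEP or STEAP2, so the search does not set the called genes apart.

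OXTR encodes the oxytocin receptor, a Gq-coupled receptor known for contraction of uterine smooth muscle. Its levels were 10.02, 10.17, 9.50 and 9.43 on Pre_Ab_IL13 arrays, against 9.16, 8.97, 8.42 and 8.77 on Pre_Ab_only arrays, and 12.18, 12.12, 11.54 and 11.51 on IL13 arrays, against 11.82, 12.05, 11.16 and 11.18 on Control arrays. All primed arrays lay below all unprimed arrays, the Pre_Ab_IL13 arrays lay above the Pre_Ab_only arrays, and in every group the passage 6 arrays were the higher ones. The primed response was 0.95 ± 0.09 (adjusted p = 1.03e-08), the unprimed one 0.28 ± 0.09 (adjusted p = 0.105) and the difference 0.67 ± 0.13 (adjusted p = 0.0156). In primed cells without antibody the OXTR response was 0.52 ± 0.10 (log2, SE). The call was lost without Pre_Ab_IL13 P6-B, Pre_Ab_IL13 P8-A, Pre_Ab_only P6-B, Pre_Ab_only P8-A or Control P6-B, with differences of 0.60 to 0.65. Of 21 contractile and smooth muscle genes, OXTR alone rose in the primed response. HSPB7, a small heat shock protein of muscle, fell in the unprimed one (-0.75), and the list's median difference was 0.01.

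SOX11 encodes an SRY-related transcription factor of embryonic tissues. Its levels were 4.42, 4.34, 4.49 and 4.64 on Pre_Ab_IL13 arrays, against 4.35, 4.36, 4.73 and 4.75 on Pre_Ab_only arrays, and 5.04, 5.29, 5.53 and 5.39 on IL13 arrays, against 4.43, 4.24, 4.64 and 4.48 on Control arrays. The 4 IL13 arrays stood above the other 12, and SOX11 was detected on all of them but on only 1 Pre_Ab_IL13, 2 Pre_Ab_only and 1 Control array. It rose in the unprimed response (0.87 ± 0.10, adjusted p = 4.34e-07), and its primed response was -0.07 ± 0.10 (adjusted p = 0.893). The difference was -0.94 ± 0.14 with an adjusted p of 8.92e-04. With so few detections outside the IL13 group, the primed response lies mostly among background values. The p of the difference therefore sets signal on IL13 arrays against mostly background values. In primed cells without the antibody SOX11 was detected on 0 of the 7 arrays, so a response there has no measured size.

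C1QTNF1 encodes a secreted protein of the C1q and TNF related family, relatives of adiponectin. It had levels of 11.98, 12.06, 12.16 and 12.15 on Pre_Ab_IL13 arrays, against 11.49, 11.23, 11.36 and 11.36 on Pre_Ab_only arrays, and 10.27, 10.88, 10.51 and 10.57 on IL13 arrays, against 8.68, 8.97, 9.19 and 9.04 on Control arrays. None of the 4 groups overlapped another. It rose in both responses, by 0.73 ± 0.11 in primed cells (adjusted p = 4.08e-05) and by 1.59 ± 0.11 in unprimed cells (adjusted p = 1.18e-11), and the difference was -0.86 ± 0.15 (adjusted p = 0.00768). A second probe gave -0.54, and the dimmest one, detected on 3 of 16 arrays, gave -0.01. With the mean of its probes the C1QTNF1 difference was -0.47 and was not called (adjusted p = 0.325), and with median scaling it was -0.76 and not called either (adjusted p = 0.891).

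GRB14 encodes an adaptor protein that binds the insulin receptor and inhibits its signalling. Its levels were 5.49, 5.82, 5.67 and 5.75 on Pre_Ab_IL13 arrays, against 6.83, 6.89, 7.23 and 7.29 on Pre_Ab_only arrays, and 4.55, 4.70, 4.54 and 4.71 on IL13 arrays, against 5.02, 5.03, 5.23 and 5.09 on Control arrays. None of the 4 groups overlapped another, and IL13 arrays were the lowest. The probe was detected on only 2 of 4 IL13 arrays, so the unprimed fall and the difference rest partly on background values. GRB14 fell in both responses, with a change of -1.38 ± 0.11 in primed cells (adjusted p = 1.15e-09) and of -0.47 ± 0.11 in unprimed cells (adjusted p = 0.0192), with a difference of -0.91 ± 0.16 (adjusted p = 0.00768). A dimmer second probe, detected on 11 of 16 arrays, went the other way, with 0.02 primed, -0.36 unprimed and a difference of 0.38. With the mean of both probes the GRB14 difference was -0.26 and was not called (adjusted p = 0.854).

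**Figure D2:**
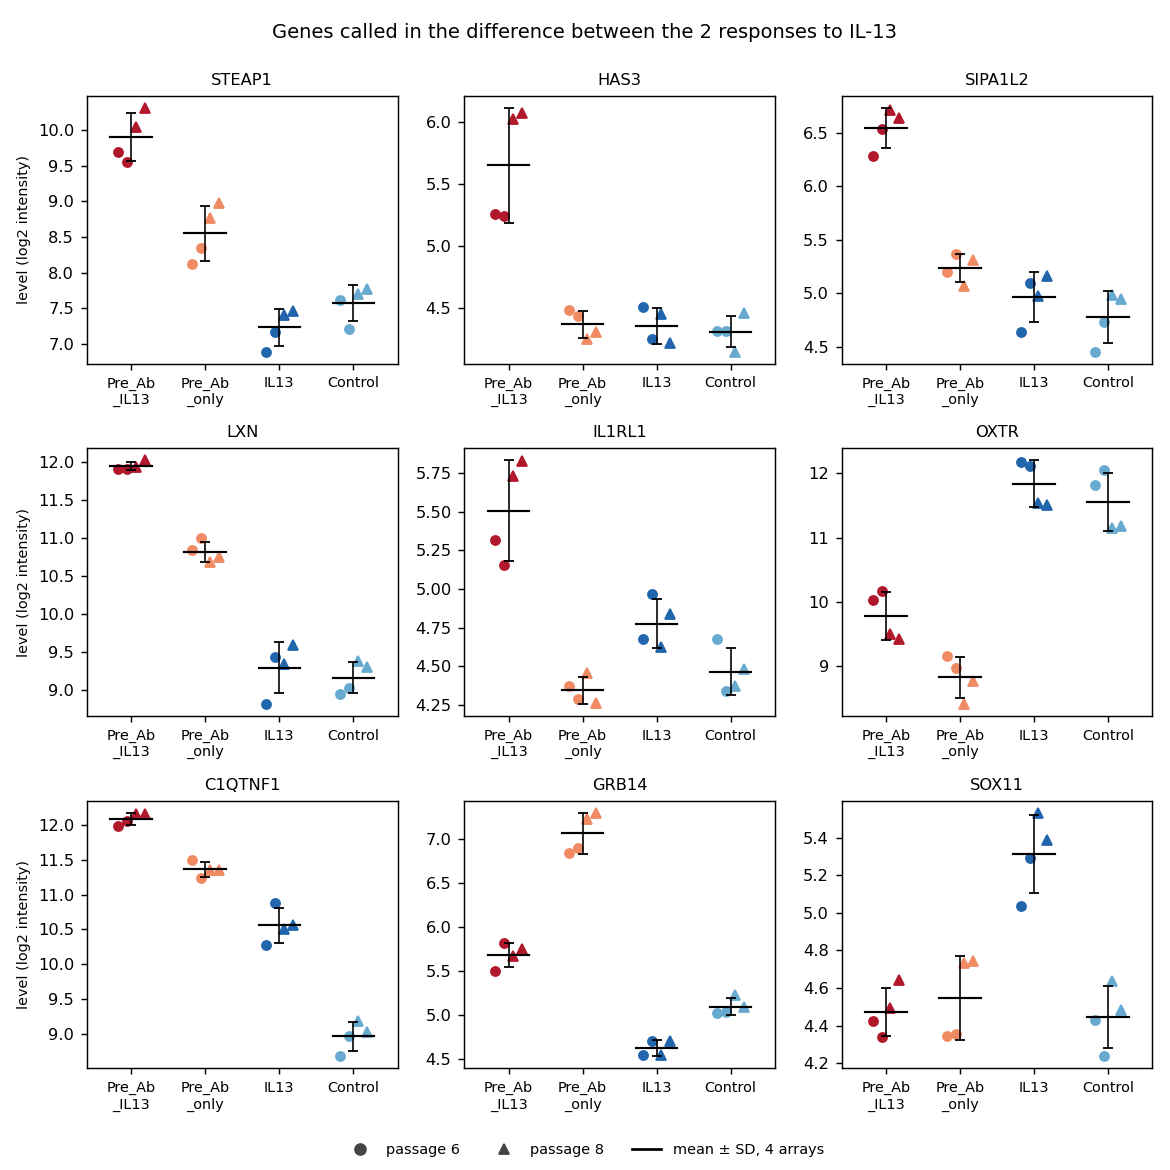
Level (log2 normalised intensity, y axis) of the 9 called genes on each array of Pre_Ab_IL13, Pre_Ab_only, IL13 and Control (x axis), circles for passage 6 and triangles for passage 8, with the mean and SD of the 4 arrays in black. In the panels of STEAP1, HAS3, SIPA1L2, LXN and IL1RL1 the Pre_Ab_IL13 arrays stand above all others, in the SOX11 panel the IL13 arrays do, and C1QTNF1 and GRB14 move the same way in both pairs by unequal amounts.

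In passage 6 alone 22 genes were called (5 higher and 17 lower) and in passage 8 alone 24 (17 higher and 7 lower), and STEAP1 was the 1 gene called in both. Of the 9 genes, 1 was called in passage 6 alone and 8 in passage 8 alone, all but OXTR. The differences of HAS3 were 0.73 in passage 6 and 1.74 in passage 8, those of IL1RL1 0.59 and 1.12, and those of C1QTNF1 -1.09 and -0.63. When the difference itself was compared between passages, 0 of these 9 genes were called. The median standard error there was 0.32 (log2), so this does not show that the passages were equal. The HAS3 gap was 1.01, with an unadjusted p of 0.00573 and an adjusted p of 0.675 in limma. In that test 3 genes were called at all, and they are named for their values: CCL11, whose difference is larger by 2.16 in passage 8, the natriuretic peptide NPPB (2.27) and the pyruvate dehydrogenase kinase PDK4 (1.84). A and B are called independent experiments in one part of the labels and technical replicates in another. With their mean as 1 sample, STEAP1 was the only gene of the 9 still called. Without both IL13 arrays of passage 6, 12 genes were called, 7 of the 9 among them. OXTR and GRB14 were the 2 that lost the call, with adjusted p of 0.0642 and 0.0532.

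**Figure D3:**
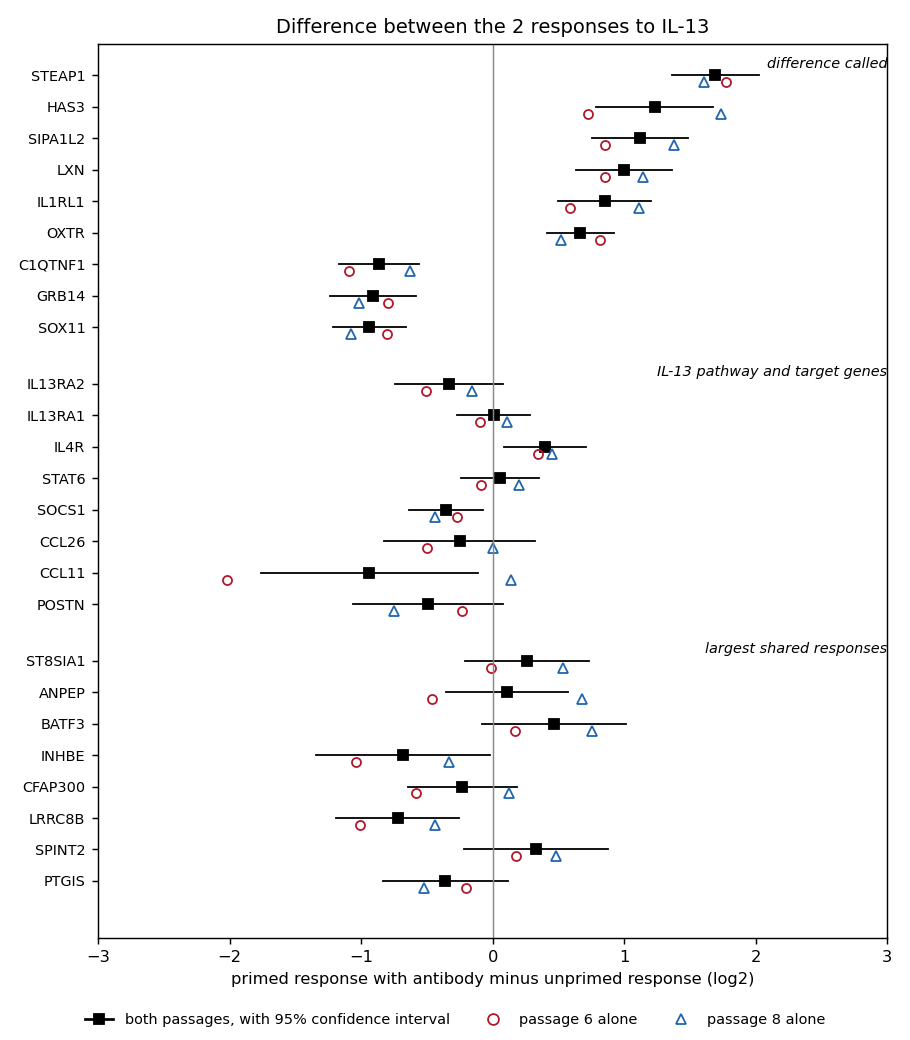
Difference between the primed response with antibody and the unprimed response (x axis, log2) for 25 genes (y axis): black squares with 95% confidence intervals from all arrays, circles from passage 6 and triangles from passage 8. The 9 called genes, chosen on the mean of both passages, lie on 1 side of 0 in each, and CCL11 is at -2.02 in passage 6 and 0.14 in passage 8.

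The genes known as the core of the IL-13 response were not among those called in the difference. CCL26 had levels of 11.11, 10.73, 11.17 and 11.40 on Pre_Ab_IL13 arrays, against 6.32, 6.47, 6.32 and 6.22 on Pre_Ab_only arrays, and 10.55, 10.41, 10.66 and 10.50 on IL13 arrays, against 5.57, 5.34, 5.47 and 5.67 on Control arrays. Each IL-13 group lay far above its own pair and the Pre_Ab_only arrays lay above the Control arrays. The response was 4.77 ± 0.20 in primed cells with antibody and 5.02 ± 0.20 in unprimed cells, and the difference of -0.25 had a 95% confidence interval of -0.82 to 0.32 (adjusted p = 0.967). Primed cells without antibody had a CCL26 response of 2.55.

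CCL11 had levels of 7.41, 7.16, 7.44 and 7.29 on Pre_Ab_IL13 arrays, against 4.68, 4.73, 4.61 and 4.78 on Pre_Ab_only arrays, and 8.65, 9.21, 6.95 and 6.73 on IL13 arrays. Control arrays had no detectable CCL11, and IL13 arrays were at least 9.52-fold above them. The IL13 arrays fell apart by passage, with both passage 6 arrays above 8 and both passage 8 arrays below 7, while the Pre_Ab_IL13 arrays lay within 0.3 of each other. The CCL11 difference of -0.94 was not called (adjusted p = 0.779), its confidence interval ran from -1.76 to -0.11, and it was -2.02 in passage 6 and 0.14 in passage 8. The test of that gap between passages had an adjusted p of 0.00534 in limma.

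SOCS1 had levels of 8.25, 8.22, 8.21 and 8.19 on Pre_Ab_IL13 arrays, against 7.36, 7.27, 7.50 and 7.54 on Pre_Ab_only arrays, and 7.39, 7.34, 7.38 and 7.19 on IL13 arrays, against 6.20, 6.15, 6.12 and 6.21 on Control arrays. Its response was 0.80 ± 0.10 primed and 1.15 ± 0.10 unprimed, both called, and the difference of -0.36 was not (95% confidence interval -0.64 to -0.08, adjusted p = 0.710). POSTN, which encodes the matrix protein periostin, a product of IL-13 treated airway cells, averaged 8.05 ± 0.11 on Pre_Ab_IL13 arrays and 7.33 ± 0.39 on Pre_Ab_only arrays, against 7.46 ± 0.46 on IL13 arrays and 6.25 ± 0.43 on Control arrays (SD, n = 4 each). Its difference of -0.49 was not called (-1.06 to 0.08), and a second probe gave 0.03. The receptor genes were measured as well. IL13RA2 averaged 11.94 ± 0.11 on Pre_Ab_IL13 arrays and 11.24 ± 0.05 on Pre_Ab_only arrays, against 8.59 ± 0.28 on IL13 arrays and 7.56 ± 0.43 on Control arrays, with responses of 0.70 primed and 1.03 unprimed and a difference of -0.33 (-0.74 to 0.08). The differences of IL13RA1, IL4R and STAT6 were 0.01, 0.40 and 0.06, with none called. IL4R rose in the primed response (0.56, adjusted p = 0.00221), and its unprimed response was 0.16 (adjusted p = 0.615).

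The 10 genes with the largest mean change among those called in both responses and not in the difference also hold ST8SIA1, a sialyltransferase that makes the ganglioside GD3. Its levels were 6.59, 6.47, 6.91 and 7.17 on Pre_Ab_IL13 arrays, against 4.54, 4.69, 4.26 and 4.56 on Pre_Ab_only arrays, and 6.06, 6.37, 6.75 and 6.55 on IL13 arrays, against 4.29, 4.28, 4.66 and 4.45 on Control arrays. Both pairs were cleanly separated, and the difference of 0.26 had an interval of -0.21 to 0.73. ST8SIA1 was detected on only 1 of 4 Pre_Ab_only and 1 of 4 Control arrays, so this difference rests partly on background values. The aminopeptidase ANPEP had responses of 1.99 primed and 1.89 unprimed, and the bZIP factor BATF3 2.17 primed and 1.70 unprimed. SPINT2, an inhibitor of serine proteases, had 1.65 primed and 1.32 unprimed, and the prostacyclin synthase PTGIS 1.28 primed and 1.64 unprimed. The lowest differences of the 10 after CCL11 were those of LRRC8B, which encodes part of a volume-regulated anion channel (-0.72, interval -1.19 to -0.25), and INHBE, an inhibin beta subunit (-0.68, interval -1.35 to -0.02). CFAP300, a factor of ciliary dynein assembly, had a difference of -0.23. These intervals are too wide to show that the responses were equal.

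**Figure D4:**
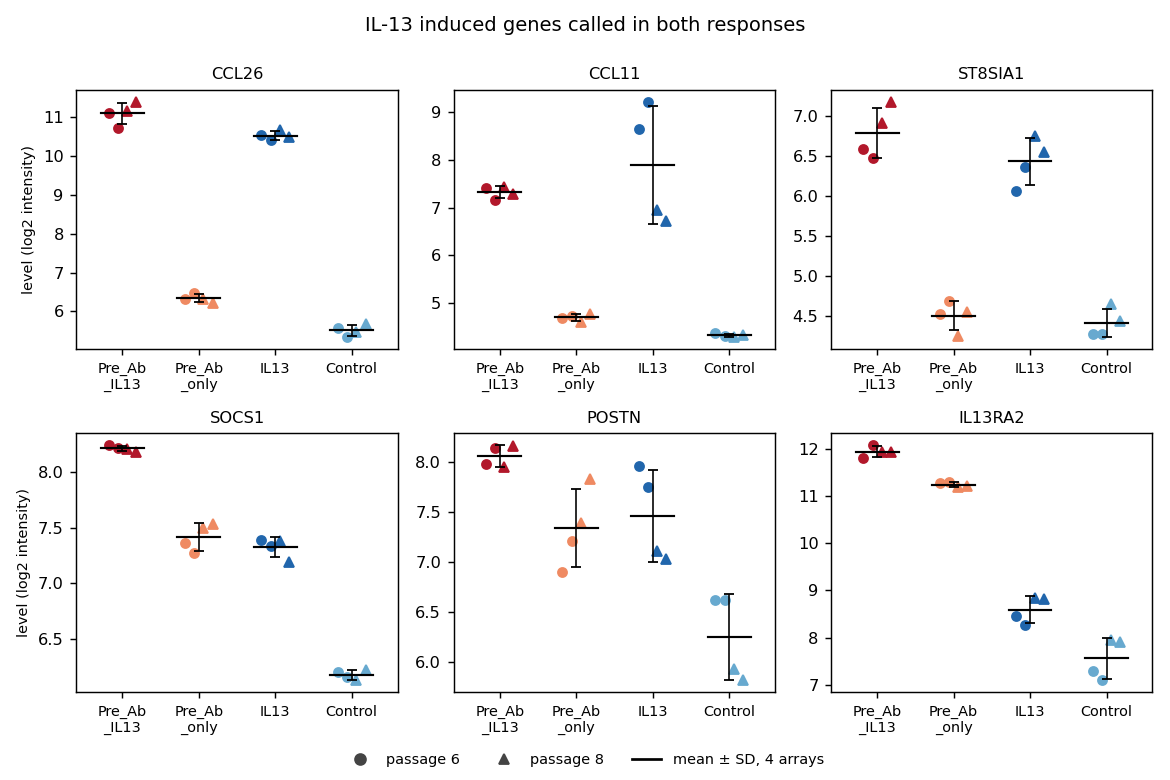
Level (log2 normalised intensity, y axis) of 6 IL-13 induced genes called in both responses, on each array of Pre_Ab_IL13, Pre_Ab_only, IL13 and Control (x axis), circles for passage 6 and triangles for passage 8, with the mean and SD in black. In every panel the IL-13 group of a pair has the higher mean, and the CCL11 values of the IL13 group split by passage.

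Over all genes tested the 2 responses had 107 called genes in common, which is 36.8% of the 291 called in primed cells with antibody and 44.0% of the 243 called in unprimed cells. Of these, 75 were higher and 32 lower in both, and 0 were called in opposite directions. Among the genes called in the primed response, 274 of 291 (94.2%) had the same sign in the unprimed one, and 224 of 243 (92.2%) the other way round. A further 320 genes were called in 1 response only, and of those 313 were not called in the difference, so most one-sided calls were not shown to be unequal. Over the 12994 genes the 2 responses correlated with a Pearson r of 0.486 and a Spearman rho of 0.285, as a description only, since genes are not independent replicates and the responses, which share no array, share beadchips and normalisation.

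The sizes depend on which response chose the genes. Genes called in the primed response had a median change of 0.60 in primed and 0.35 in unprimed cells, and genes called in the unprimed response had a median of 0.41 in primed and 0.60 in unprimed cells, each counted in the direction of the call. To separate choice and measurement, genes were called in passage 6 and measured in passage 8, a step added after the data were seen. The 123 genes so chosen on the primed response had medians of 0.70 primed and 0.49 unprimed, with 89 larger in primed cells. The 234 genes chosen on the unprimed response had medians of 0.25 primed and 0.34 unprimed, with 106 larger in primed cells.

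Among 17 measured targets of IL-13 and IL-4, 11 rose in the primed response and 10 in the unprimed one, against 1.15% of all genes in each. In the difference limma called 0, and the median was -0.09. There 4 had an unadjusted p under 0.05, against 759 of 12994 genes. The tenascin gene TNC, for example, rose by 0.89 primed and 0.98 unprimed. The mean level of the 17 genes was 8.29 ± 0.05 on Pre_Ab_IL13 arrays and 7.34 ± 0.03 on Pre_Ab_only arrays, against 7.73 ± 0.17 on IL13 arrays and 6.69 ± 0.07 on Control arrays (SD, n = 4 each). It was 7.68 ± 0.09 on Pre_IL13 arrays and 7.42 ± 0.06 on Pre_only arrays (n = 4 and 3). In the receptor and STAT6 pathway 4 of 25 rose and 1 fell in the primed response, and 3 rose and 2 fell in the unprimed one. In the difference 0 were called and 2 had an unadjusted p under 0.05, against 5.84% of all genes. CISH, a STAT-induced relative of SOCS1, rose in both. It was detected on 0 of 4 Pre_Ab_only arrays, so its primed change is given as at least 1.44-fold, and its unprimed change was 0.66 (log2). IRS2, a docking protein of the IL-4 and insulin receptors, was called lower in the unprimed response (-0.64), and its primed change of -0.41 was not called.

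For every list described here, the share over all genes was 1.15% higher in each response, 1.09% lower in the primed and 0.716% lower in the unprimed one. Of 32 TNF and NF-κB induced genes, 5 rose in each response. In the difference 0 were called and 8 had an unadjusted p under 0.05, against 759 of 12994 genes. The monocyte chemokine CCL7 was 0.49 in the primed response (adjusted p = 0.252) and rose by 1.52 in the unprimed one. Its levels were 9.06, 8.77, 9.40 and 9.65 on Pre_Ab_IL13 arrays, against 8.81, 9.14, 8.47 and 8.52 on Pre_Ab_only arrays, and 6.26, 6.76, 7.22 and 7.19 on IL13 arrays, against 5.19, 5.03, 5.54 and 5.62 on Control arrays. Its difference of -1.03 ± 0.27 was not called (adjusted p = 0.240). CCL2, another monocyte chemokine, rose in both (0.41 primed and 1.02 unprimed) and came close to the threshold with a difference of -0.61 ± 0.13 (adjusted p = 0.0623). The adaptor TRAF1 (1.01 primed and 0.88 unprimed) and the kinase MAP3K8 (0.88 primed and 0.82 unprimed) rose in both. Of 21 IL-17 induced genes, 2 were called higher in each response. IL17RA, which encodes a chain of the IL-17 receptor, rose in both (0.97 primed and 1.19 unprimed). The ribonuclease ZC3H12A was called in the primed one. It was undetected on all IL13 and Control arrays, so its unprimed response has no measured size. IL6 was called in the unprimed one (1.37), while its primed response of 0.98 was not called (adjusted p = 0.0735 in limma).

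Of 41 extracellular matrix genes, 7 rose in the primed and 6 in the unprimed response, among them the collagen VI chains COL6A1 (0.72 primed and 0.43 unprimed) and COL6A2 (0.70 primed and 0.63 unprimed), and the median difference was -0.01. Of 26 matrix proteases and inhibitors, ADAMTS1 was the 1 called, lower in both (-0.45 primed and -0.86 unprimed). Among 28 TGF-β pathway genes the receptor TGFBR2 was called lower in the primed response (-0.37). FST, GREM1 and SMAD3 were called lower in the unprimed one (-0.53, -0.44 and -0.50). TGFBR2 averaged 10.77 on IL13 and 11.04 on Control arrays. On Pre_Ab_IL13 and Pre_Ab_only arrays GREM1 averaged 12.38 and 12.63, SMAD3 9.18 and 9.32, and FST 12.82 and 12.80. In the difference 0 were called and 2 had an unadjusted p under 0.05, against 759 of 12994 genes.

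Of 33 cell cycle genes, 9 fell in the primed and 5 in the unprimed response, against 1.09% and 0.716% of all genes, and 1 rose in each. In the difference 0 were called and 3 had an unadjusted p under 0.05, against 759 of 12994 genes. UBE2C, which feeds the anaphase-promoting complex, fell in both (-1.07 primed and -0.71 unprimed), as did CDC20 (-0.80 primed and -0.68 unprimed). The kinetochore protein gene CENPF fell in the primed response (-0.81), was -0.13 in the unprimed one (adjusted p = 0.770) and had a difference of -0.68 ± 0.18 (adjusted p = 0.267). The list's median difference was -0.12, with 22 of 33 members below 0, against 6301 of 12994 genes.

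Of 34 interferon response genes, IFI44L (-0.74) and HERC5 (-0.42) fell in the primed response and ISG20 rose in the unprimed one (0.91). IFI44L and HERC5 were undetected on all IL13 and Control arrays, so their unprimed responses have no measured size. The median difference was -0.26, with 28 of 34 members below 0, against 6301 of 12994 genes. In the difference 0 were called and 7 had an unadjusted p under 0.05, against 759 of 12994 genes. The differences of IFI44L and HERC5 rest partly on background values. Of 20 alcohol dehydrogenases and aldo-keto reductases, AKR1B10 (-1.11) and AKR1C4 (-1.02) fell in the primed response and 0 were called in the unprimed one. Their differences of -0.93 ± 0.30 and -1.04 ± 0.38 were not called, and the AKR1C genes are near-identical, so their probes may share signal.

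**Figure D5:**
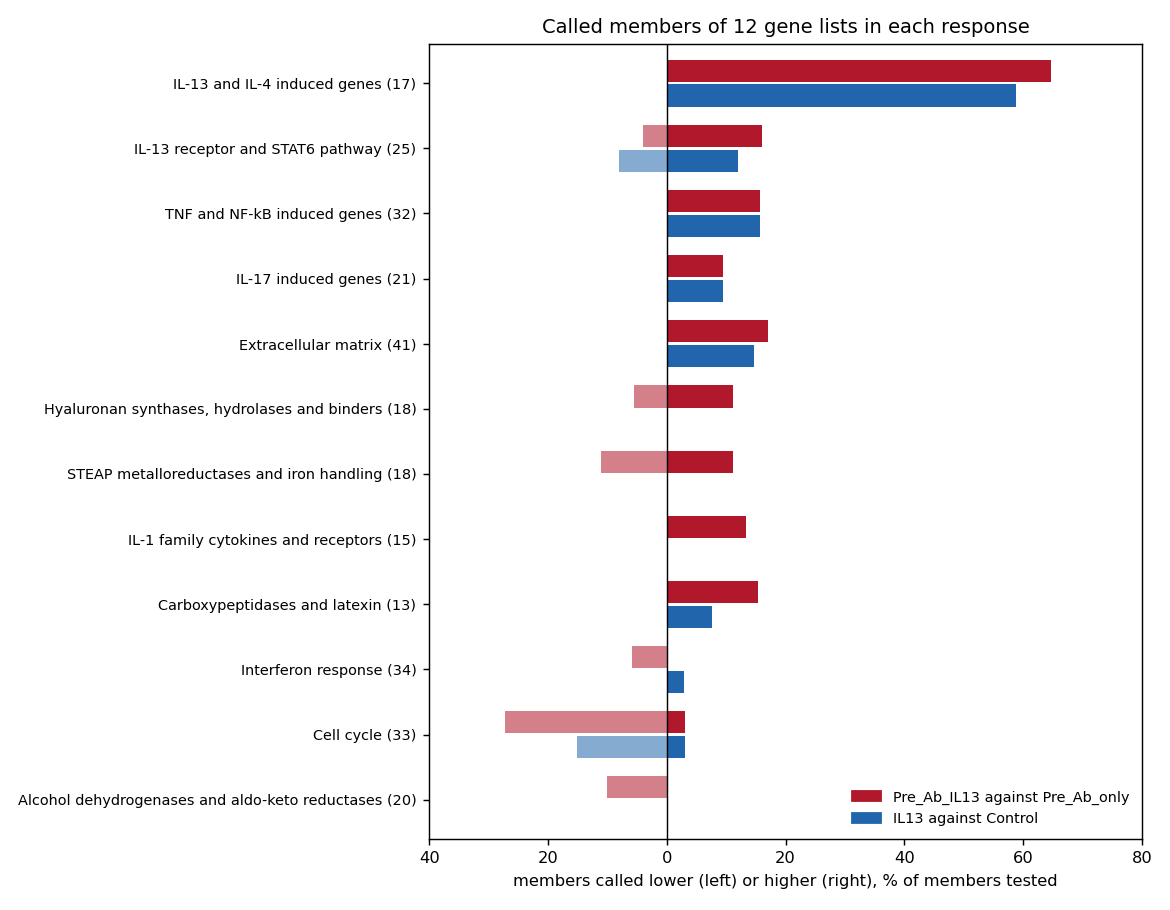
Members of 12 gene lists called higher (right) or lower (left) in the primed response with antibody (upper bar) and in the unprimed response (lower bar), as a percentage of the members tested (x axis; number tested in brackets). IL-13 and IL-4 induced genes have similar bars in both responses, and cell cycle genes have 9 members lower in the primed and 5 in the unprimed response. Over all genes 1.15% were higher in each response, 1.09% lower in the primed and 0.716% lower in the unprimed one.

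The remaining lists had few called members. In the primed response 1 of 18 cholesterol synthesis genes (INSIG1, 0.68), 1 of 34 stress response genes (INHBE) and 2 of 17 prostaglandin genes rose (PTGIS, and PTGER4 with 0.89), and in the unprimed one 0, 2 (INHBE, and ATF3 with 1.30) and the same 2 did. Of 30 glycolysis and hypoxia genes HK1 rose and NDRG1 fell in both. Of 29 growth factors ANGPTL4 rose in both (0.76 primed and 0.60 unprimed), GDF15 fell in the primed response and FGF2 rose in the unprimed one. In the difference 0 of the 29 were called and 8 had an unadjusted p under 0.05, against 759 of 12994 genes. The highest value was that of IL11, a cytokine of the IL-6 family, with 1.16 ± 0.43 (SE, adjusted p = 0.700), and it was named after its value was seen. Of 23 amino acid carriers 0 were called in either. Of 15 tested fibroblast markers 0 were called in either response. KRT19 of 5 epithelial, VWF of 2 endothelial and CD14 of 7 leukocyte markers were called lower in the unprimed response alone, and TEK in both. On Pre_Ab_IL13 and Pre_Ab_only arrays KRT19 averaged 6.81 and 7.12, VWF 4.51 and 4.92, and CD14 8.68 and 8.99, so their primed means were lower with IL-13 too.

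Just outside the threshold stood further genes, named for their values. IL18R1, CABLES1, a cyclin-dependent kinase adaptor (0.74 ± 0.16), and RAB27B, a GTPase of secretory vesicles (-0.77 ± 0.16), had an adjusted p of 0.0586. CCL2, VAT1L (-0.79), SHROOM2 (0.67) and CFAP69 had 0.0623, followed by BTBD3 (0.60, adjusted p = 0.0735) and the cardiac LIM protein gene LMCD1 (-0.64, adjusted p = 0.0740). RAB27B was undetected on all IL13 and Control arrays, SHROOM2 on all Pre_Ab_only arrays and CFAP69 on all IL13 arrays, so their fitted differences rest partly on background values. Just inside the threshold stood IL1RL1 (0.0436) and OXTR (0.0156).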

How the data were processed

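The authors deposited mean bead intensities of 47323 probes per array, exported unnormalised from GenomeStudio 2011.1 per the submitters' processing notes, each with a detection p-value per the file headers. The bead standard errors (a signal unit) in the deposited per-array files served for quality only. The authors' normalised table of 31390 probes, taken as log2 from its values, was an alternative. The platform annotation used lists 21339 probes, 21332 with 1 symbol and 7 with several, and all other probes were left unnamed. Intensities were background-corrected and quantile-normalised with neqc (limma 3.58.1, R 4.3.3, offset 16). A further 14 probes, each without a value on an array, were dropped. Of the rest, 24096 reached a detection p under 0.05 on 3 or more arrays and were kept (17541 with 1 symbol), and the brightest probe stood for each of 12994 genes.

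A linear model of group (6 levels) and passage was fitted with limma (eBayes with trend) to all 23 arrays, with 16 residual degrees of freedom, and p-values were adjusted by Benjamini-Hochberg over all genes. The procedure was first tested on simulated data. The labels name separate experiments but no separate cultures beyond passage, so p-values measure the spread between these samples, which may be technical. A bound written "at least" raises undetected values to the lowest detected level of each array. Named genes are the 5 markers, all genes called in the difference, 8 fixed IL-13 genes, the 10 largest shared responses, and up to 4 members of each of 26 gene lists called in either response or the difference. The members and lists were chosen with earlier results of these data known. The A and B numbers did not pair the samples: deviations of same-numbered arrays correlated from -0.26 to 0.16 in passage 6 and from -0.22 to 0.34 in passage 8, with 1 of 15 and 1 of 10 group pairs over 0.1. Alternatives changed the background correction, scaling, value source, filter, probe choice, passage term, block, replicate unit, arrays, weights, trend and minimum fold. The number of value columns belonging to no sample was 0. Sequences came from RefSeq (GRCh38.p14), and SOX11, C1QTNF1, CCL11 and BATF3 were among the 18 genes searched but had no entry.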

Additional observations from a re-analysis of the deposited data

Results flagged for a closer look

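The response to IL-13 was called as different between primed, antibody-treated cells and unprimed cells for 9 genes. The call was limma's test of the difference itself (adjusted p under 0.05, in the fit to all 23 arrays). The differences were 1.69 for STEAP1, 1.23 for HAS3, 1.12 for SIPA1L2, 1.00 for LXN, 0.85 for IL1RL1 and 0.67 for OXTR, all higher in primed cells. They were -0.94 for SOX11, -0.91 for GRB14 and -0.86 for C1QTNF1. Without background correction several were smaller, among them HAS3 (0.40), SIPA1L2 (0.51), IL1RL1 (0.28), SOX11 (-0.29) and GRB14 (-0.57). HAS3 was detected on 0 Pre_Ab_only, IL13 and Control arrays, so its p sets signal against background values and is no separate support. The differences of SOX11 and GRB14 rest partly on background values, and a second GRB14 probe gave 0.38, the opposite sign. The CCL11 difference itself differed between the passages, by 2.16 (passage 8 minus passage 6, adjusted p = 0.00534), being -2.02 in passage 6 and 0.14 in passage 8. It was the IL13 arrays that stood apart by passage, at 8.65, 9.21, 6.95 and 6.73 for P6-A, P6-B, P8-A and P8-B. Dixon's test for a sample far from the others was applied to 100 groups of 4 arrays (25 genes) and found 0.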

How the results depend on the processing

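The difference between the responses was called for 9 genes (6 higher, 3 lower). It was called for 23 without background correction and for 23 in the authors' table, with all 9 among them in each but smaller sizes: the authors' table gave 0.40 for HAS3, 0.50 for SIPA1L2, 0.28 for IL1RL1, -0.29 for SOX11 and -0.57 for GRB14. It was called for 11 with the 16 arrays fitted alone, where IL1RL1 lost its call (adjusted p = 0.109) and the other 8 kept it, for 16 with array weights, for 1 with the mean of A and B, for 1 with a minimum fold of 1.2, for 22 in passage 6 alone and for 24 in passage 8 alone. With median scaling it was 6 (5 higher, 1 lower), a setting that moved the median unprimed change of all genes to -0.12, and LXN, OXTR, GRB14 and C1QTNF1 lost their calls. Leaving out 1 array at a time gave 7 to 14, with 14 without Pre_Ab_only P6-A and without IL13 P8-A. The primed response (291) gave 160 with median scaling, 149 without a passage term, 75 with the mean of A and B, 622 with array weights, 68 with a minimum fold, 123 in passage 6 alone and 210 to 377 with 1 array left out. The unprimed response (243) gave 92 with median scaling, 113 without a passage term, 55 with the mean of A and B, 54 with a minimum fold, 146 in passage 8 alone, 97 without both IL13 arrays of passage 6 and 174 to 296 with 1 array left out. The comparison between passages (3) gave 7 without background correction, 7 in the authors' table, 1 with median scaling and 2 to 6 with 1 array left out, with 6 without IL13 P6-A. A replicate block of passage and experiment gave 8, 273 and 221 for the difference, the primed and the unprimed response, with IL1RL1 losing its call (adjusted p = 0.0664). Averaging A and B leaves fewer samples, but part of the labels calls A and B technical replicates, which the main fit counts as separate samples. Which of these lowered the counts was not tested. The minimum fold sets a stricter test. For the other settings the cause was not tested.

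STEAP1 was called in 33 of 33 settings, HAS3 and SIPA1L2 in 30, LXN in 29, SOX11 in 29 of 32, C1QTNF1 in 28 of 33, GRB14 in 27, OXTR in 21 and IL1RL1 in 13, and all 9 kept their sign throughout. The HAS3 calls set signal against background values and are no separate support. SOX11 has 32 settings because it was not tested under the stricter filter, a detection p under 0.01 on 4 arrays. With 1 array left out, 7 of the 9 kept the call in all 16 cases, IL1RL1 in 5 and OXTR in 11. The number of arrays and the low levels of HAS3, IL1RL1 and SOX11, which were undetected on many arrays, limit the precision of their sizes. The size for GRB14 is limited likewise, as it was detected on 2 of 4 IL13 arrays. Its kept sign is that of the brighter probe or of the mean of both, and the second probe alone gave 0.38, the opposite sign.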

Other observations

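When all 24096 kept probes were tested, with or without a gene symbol, 12 were called in the difference, 8 higher and 4 lower. A probe for each of STEAP1, LXN, SIPA1L2, SOX11, HAS3, OXTR, C1QTNF1 and GRB14 was among them, with a second STEAP1 probe (1.57) and the second STEAP2 probe (0.98, adjusted p = 0.0110). The other 2 have no single symbol in the annotation used: ILMN_1663575, with a difference of 1.10 ± 0.16 (SE, adjusted p = 0.00104), and ILMN_2314169, with -0.97 ± 0.20 (adjusted p = 0.0478). The IL1RL1 probe was not called in this larger family of tests.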
